A study of Mus musculus with 2 samples.

Results

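The genes described here are 10 modulators of Wnt signalling: the R-spondin ligands Rspo2 and Rspo3, their receptors Lgr4, Lgr5 and Lgr6, the secreted proteins Dkk2 and Dkk3, the ubiquitin ligase Znrf3, the scaffold protein Axin2 and the transcription factor Tcf7l2. They were chosen by symbol among the 48816 genes of the deposited tables, and each of the 10 symbols had 1 entry. Their transcripts were counted in single nuclei of the stria vascularis (SV), the potassium-secreting epithelium of the cochlear lateral wall. The tissue came from CBA/J mice (strain 000656) at postnatal day 30, for which the labels list no treatment or altered allele. The 2 droplet libraries differed in the preservation step: for 1 the nuclei were fixed in methanol once isolated (MethFix), and for the other the tissue was kept in RNAlater and nuclei were taken from it afterwards. Each library pooled several mice (5 and 6 by the study's methods, 5 to 6 and 10 by the labels), so that values of single animals cannot be told apart. The questions were which cell types of the SV held each transcript, and how often the receptor Lgr5 and the ligand Rspo2 were found in the same nucleus.

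Wnt proteins bind Frizzled receptors and Lrp co-receptors and stabilise beta-catenin, which turns on genes together with TCF/LEF factors. R-spondins raise the sensitivity of a cell to Wnt: bound to an Lgr receptor, they keep the membrane ligases Znrf3 and Rnf43 from removing Frizzled from the surface. Dkk proteins act on the Lrp co-receptors from outside the cell, and Axin2 and Znrf3 are themselves turned on by the pathway and restrain it. In the cochlea Lgr5 is best known from supporting cells of the organ of Corti.

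After filtering, 3372 of 4748 MethFix barcodes and 2311 of 3868 RNAlater barcodes were kept as nuclei, with a median of 3498.5 and 4702 UMIs (unique molecular identifiers, each counting 1 captured RNA molecule). The matrices were not independent. They shared 3323 barcodes, which is 70.0% of the MethFix and 85.9% of the RNAlater barcodes, and 2256 of these were kept in both. Of the Lgr5, Rspo2 and Dkk2 UMIs that MethFix held in those nuclei, 92.5%, 93.3% and 98.2% were matched by a UMI of the same gene under the same barcode in RNAlater. The 2 matrices are therefore counted as 1 sample, values are given for each in turn, no difference between the preservation methods is read from them, and no test is made. Intervals are exact 95% intervals that cover counting error only.

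Nuclei were grouped by clustering, and clusters were named from marker genes with the 10 modulators left out. Root-like nuclei, written root nuclei for short, had the tectorial membrane gene Ceacam16 and the proteoglycan gene Epyc at 100 or more CPM each, where CPM are the UMIs of a gene per 1000000 UMIs of the cluster or class (72 MethFix and 69 RNAlater nuclei, 74 different barcodes). Root cells lie beside the SV and send processes into the spiral ligament. In tissue sections the study saw Epyc also in the greater epithelial ridge and outer sulcus. It saw Lgr5 also in outer sulcus and Deiters cells. Epyc therefore does not tell root nuclei from those of the outer sulcus, and which of these cells the class holds was not tested. Spindle-like nuclei were led by Anxa1 and Il1rapl2 (97 and 57 nuclei), and spindle cells lie at the borders of the SV. Reissner-like nuclei were led by Slc26a7 and Otx2os1 (155 and 154 nuclei), and Reissner's membrane is the thin sheet that closes the cochlear duct above the SV. Marginal-like (1105 and 673), intermediate-like (854 and 522) and basal-like nuclei (751 and 605) stand for the 3 layers of the SV itself. The root class joined a Slc26a4-rich cluster (34 and 37 nuclei) and an Epyc-rich cluster (38 and 32). Slc26a4, which encodes the anion exchanger pendrin, was at 4462 and 4299 CPM in the first and at 650 and 539 in the second. The Slc26a4-rich cluster lay just inside the naming limit, with Ceacam16 at 153 and 171 CPM, against 2978 and 2813 in the Epyc-rich cluster. A cluster of 14 and 13 nuclei lay outside it and was kept apart as Ceacam16-only: Ceacam16 was at 6490 and 7169 CPM, Epyc and Slc26a4 at 0. In it 4 of 5 supporting-cell markers were detected, at a summed 223 and 196 CPM. Root nuclei had a summed 63.4 and 75.4 and basal nuclei 65.6 and 61.0 CPM. Basal nuclei also had 4 detected, but from 2102682 and 2211914 UMIs in all, against 53771 and 56211 in Ceacam16-only nuclei. Prox1, Fgfr3 and Lfng had 2, 3 and 5 UMIs in Ceacam16-only nuclei of MethFix and 4, 3 and 1 in RNAlater. In root nuclei Prox1 was at 0 in both matrices and Lfng in MethFix. The defining marker Sox2 was at 0 in every class named here, and so does not tell them apart.

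In build GRCm38 with GENCODE annotation Lgr5 lies at chr10:115450311-115587780 on the minus strand, Rspo2 at chr15:43020794-43170826 on the minus strand and Dkk2 at chr3:132085292-132180304 on the plus strand. All 10 genes are protein coding. RefSeq windows from 250 bases before to 50 bases after the transcription start (build GRCm38.p6) were at hand for 5 members, Lgr4, Lgr6, Dkk2, Axin2 and Tcf7l2, the last with 2 starts. These 6 windows were searched on both strands for words that TCF/LEF factors are known to bind, the letters CTTTG followed by 2 more that are each A or T, which makes 4 words. A word was present in 1 of the 6 windows, against 16.9% of all 32851 windows of the same length. The Dkk2 window is shown because Dkk2 was high in Reissner and spindle nuclei and at 0 or 1 UMI in root nuclei, and the Tcf7l2 window because it held the match, in capitals, 14 bases before the start:
Dkk2, chr3:132085042-132085341, plus strand: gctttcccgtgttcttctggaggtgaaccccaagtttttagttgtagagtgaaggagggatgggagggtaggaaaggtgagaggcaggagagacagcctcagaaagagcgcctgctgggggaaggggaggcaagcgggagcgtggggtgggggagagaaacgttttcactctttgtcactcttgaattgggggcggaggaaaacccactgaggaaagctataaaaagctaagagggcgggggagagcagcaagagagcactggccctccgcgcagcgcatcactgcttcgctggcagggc
Tcf7l2, chr19:55895071-55895370, plus strand: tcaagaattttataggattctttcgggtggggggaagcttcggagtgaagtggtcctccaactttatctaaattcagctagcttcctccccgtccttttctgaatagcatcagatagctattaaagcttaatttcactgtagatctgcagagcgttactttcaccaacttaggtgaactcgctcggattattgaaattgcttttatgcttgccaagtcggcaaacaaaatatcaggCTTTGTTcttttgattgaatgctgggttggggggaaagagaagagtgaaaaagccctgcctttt
A match describes these letters in this window and nothing more.

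**Figure D1:**
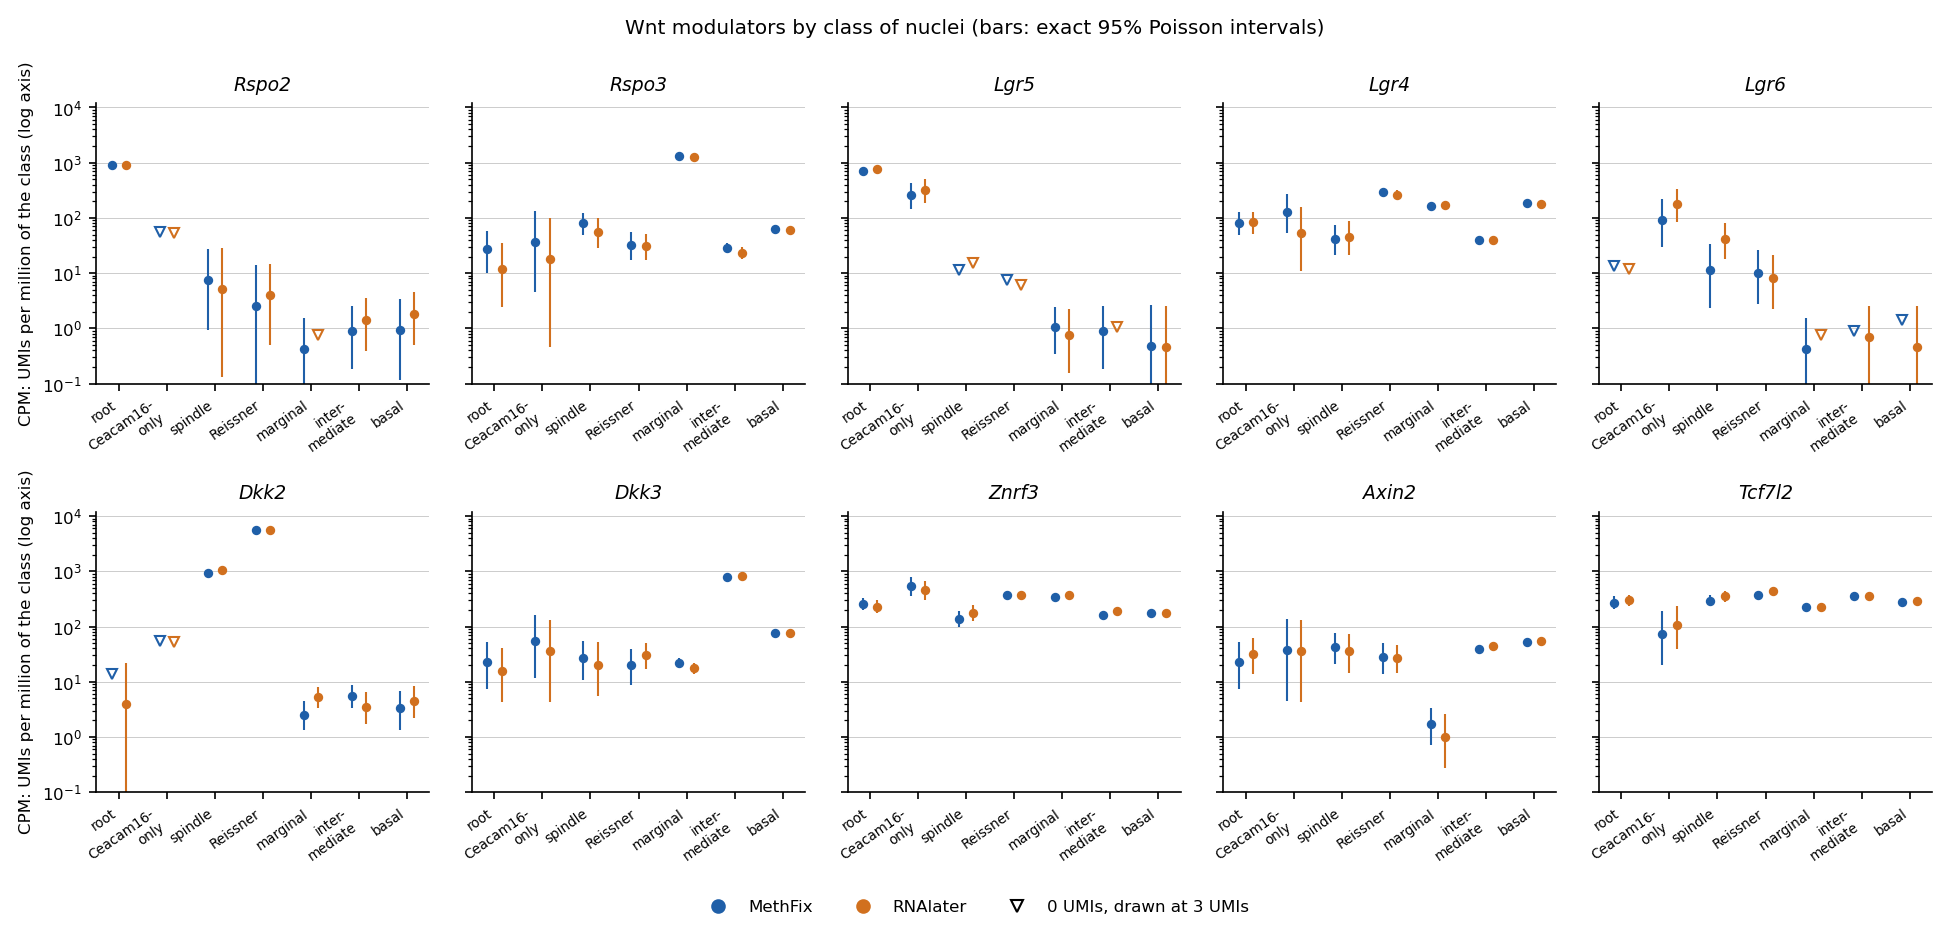
Level of each of the 10 modulators in 7 classes of nuclei, in CPM on a log axis, with MethFix and RNAlater as separate points and bars for the exact 95% Poisson interval; open triangles, drawn at 3 UMIs, mark 0 UMIs. Rspo2 and Lgr5 stood highest in root nuclei, Dkk2 in Reissner nuclei, Rspo3 in marginal nuclei and Dkk3 in intermediate nuclei.

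Among the ligands, Rspo2 was a transcript of root nuclei. It reached 911 (789 to 1046) CPM in MethFix and 905 (791 to 1030) in RNAlater, from 201 and 228 UMIs. Root nuclei held 92.6% and 91.6% of the Rspo2 UMIs of all kept nuclei while making up 72 of 3372 and 69 of 2311 of them. Against all other nuclei the log2 ratio was 9.40 in MethFix and 8.79 in RNAlater. At least 1 Rspo2 UMI was found in 65.3% and 69.6% of root nuclei, at a median of 2753 and 3402 UMIs per nucleus. Outside the class it was found in 0.394% and 0.714% of the nuclei, at medians of 3523 and 4740. Spindle nuclei, the neighbours compared with root nuclei in the study, had 2 and 1 Rspo2 UMIs, which gave log2 ratios of root over spindle of 6.90 (5.03 to 9.96) and 7.47 (4.97 to 12.78). Ceacam16-only nuclei had none, at least 16.3-fold and 17.0-fold lower than root nuclei.

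The other measured ligand, Rspo3, was a transcript of marginal nuclei, the cells that face the endolymph and secrete potassium. Its level there was 1313 CPM in MethFix and 1284 in RNAlater, with a UMI in 88.5% and 94.3% of nuclei. Marginal nuclei held 91.9% and 94.1% of the Rspo3 UMIs of all kept nuclei. Counts per marginal nucleus had a median of 5 and 6 and ran up to 36 and 41. Spindle nuclei had 80.1 and 56.3 CPM and basal nuclei 62.3 and 61.5, in this order in MethFix and the other in RNAlater, with overlapping intervals. Reissner (32.8 and 30.7), intermediate (28.6 and 23.5), Ceacam16-only (37.2 and 17.8) and root nuclei (27.2 and 11.9) came below them, and the last 2 classes rest on 6 UMIs or fewer. The 2 R-spondins thus had their highest levels in different cell classes. Markers of marginal cells summed to 272 and 318 CPM in root nuclei and to 751 and 691 in spindle nuclei. The log2 ratio of Rspo3 in root over spindle nuclei was −1.56 and −2.24, and the part of stray marginal RNA in it was not tested.

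Lgr5, an R-spondin receptor, was highest in root nuclei as well. It stood at 720 (613 to 841) CPM in MethFix and at 762 (658 to 878) in RNAlater, from 159 and 192 UMIs. Root nuclei held 81.1% and 86.1% of the Lgr5 UMIs of all kept nuclei, while barcodes removed by the filters held a further 116 and 114, and the log2 ratio against all other nuclei was 7.85 and 7.98. A Lgr5 UMI was found in 30 of 72 MethFix root nuclei (41.7%) and in 32 of 69 RNAlater root nuclei (46.4%), and in 34.8% and 32.3% after each nucleus was thinned to 1000 UMIs. In marginal nuclei, which are deeper, the share was 0.452% and 0.446%. No Lgr5 UMI was found in the 97 and 57 spindle nuclei. With that 0 set to 3 UMIs, the level was at least 63.0-fold and 49.6-fold higher in root nuclei. At this depth, 0 such nuclei allow a share of nuclei with a UMI of up to 3.73% and 6.27%, the upper ends of the exact intervals. This does not limit the share that expresses the gene. Reissner nuclei had no Lgr5 UMI either.

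Lgr4, the broadly expressed receptor of the family, was found in every class and was highest in Reissner nuclei. It stood there at 293 CPM in MethFix and at 264 in RNAlater, with a log2 ratio over all other nuclei of 1.25 and 1.04. Basal nuclei had 185 and 175 and marginal nuclei 167 and 174 CPM, values whose intervals overlapped in both matrices. Root nuclei, the class with most Lgr5, had 81.5 and 83.4 CPM of Lgr4. Spindle nuclei had 41.9 and 46.1 and intermediate nuclei 39.6 and 39.3, and these neighbours in the order did not differ beyond counting error. In marginal nuclei Lgr4 and Rspo3 were found together in 436 of 1105 nuclei of MethFix and in 364 of 673 of RNAlater, where unrelated detection would give about 420 and 359.

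Lgr6 had few UMIs, 37 and 42 over all kept nuclei. Unnamed nuclei held the most of them, 23 and 11. Ceacam16-only nuclei held 5 and 10 (93.0 and 178 CPM), spindle nuclei 3 and 8, and Reissner nuclei 4 and 4. Root nuclei held 0 in both matrices, and the level of Ceacam16-only nuclei was at least 6.84-fold and 14.9-fold higher. That comparison had under 10 UMIs in MethFix, 3 of its 5 in 1 nucleus, so that Lgr6 does not count as measured in it. Of the 7 named classes, each of the 3 receptors was highest in another one: Lgr4 in Reissner, Lgr5 in root and Lgr6 in Ceacam16-only nuclei. For Lgr6 this order is uncertain, as its interval overlapped that of spindle nuclei in MethFix. Among Ceacam16-only nuclei none of 14 or 13 had both Lgr5 and Lgr6.

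The root class was not uniform for either Lgr5 or Rspo2, and the Slc26a4-rich cluster carried most of both. Lgr5 was at 1275 CPM (150 UMIs) in the Slc26a4-rich cluster of MethFix and at 1200 (182 UMIs) in that of RNAlater, against 87.3 (9 UMIs) and 99.8 (10 UMIs) in the Epyc-rich cluster. The log2 ratio was 3.87 (2.90 to 5.02) and 3.59 (2.68 to 4.67). Lgr5 was detected in 25 of 34 and 29 of 37 Slc26a4-rich nuclei, with up to 23 and 28 UMIs in a nucleus. In the Epyc-rich cluster it was detected in 5 of 38 and 3 of 32 nuclei. Rspo2 differed less: 1436 and 1259 CPM in the Slc26a4-rich cluster stood against 310 and 369 in the Epyc-rich cluster, a log2 ratio of 2.21 and 1.77. In the Epyc-rich cluster 17 of 38 and 17 of 32 nuclei had a Rspo2 UMI. Of the 3952 genes measured in this comparison 8.48% were 2-fold or more higher in the Slc26a4-rich cluster in both matrices and 12.0% lower. Of the 5 measured modulators Lgr5 and Rspo2 were higher and none was lower. Markers of interdental cells, which border the tectorial membrane, moved with the split: 1 of 4, Otoa, was detected, at 213 and 229 CPM (22 and 23 UMIs) in the Epyc-rich cluster and at 0 in the Slc26a4-rich cluster, and its part in these values was not tested. These clusters were set side by side after their values had been seen.

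**Figure D2:**
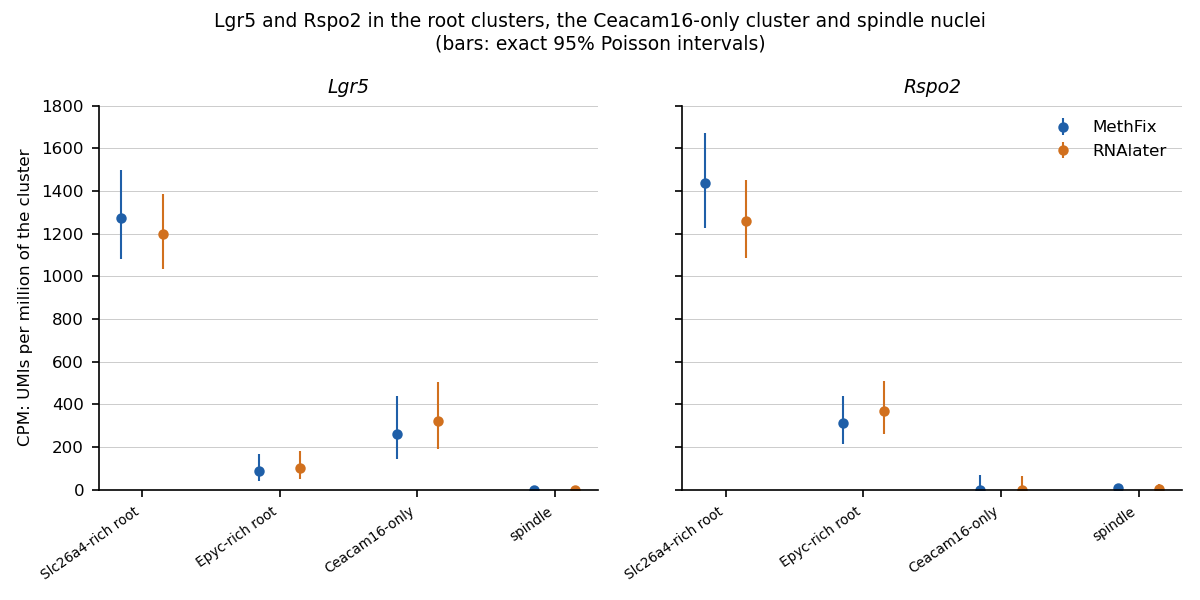
Lgr5 and Rspo2 in the Slc26a4-rich root, Epyc-rich root, Ceacam16-only and spindle nuclei of each matrix, in CPM on a linear axis from 0, with bars for the exact 95% Poisson interval. Both genes were higher in the Slc26a4-rich than in the Epyc-rich cluster, and the Ceacam16-only nuclei had Lgr5 without Rspo2.

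Ceacam16-only nuclei showed the genes apart. Their Lgr5 level was 260 CPM in MethFix (14 UMIs in 4 of 14 nuclei) and 320 in RNAlater (18 UMIs in 4 of 13 nuclei), a log2 ratio to root nuclei of −1.47 and −1.25. In each matrix 1 nucleus held most of these UMIs, 8 in MethFix and 10 in RNAlater. No Rspo2 UMI was found in them. Among the other members Znrf3 was at 539 and 463 CPM, a log2 ratio to root nuclei of 1.06 and 1.01 that fell to 0.76 and 0.73 when TMM factors replaced total UMIs. Tcf7l2 had 4 and 6 UMIs, 74.4 and 107 CPM, with log2 ratios of −1.87 and −1.50. Of 4607 genes measured in this comparison, which was also added after the values had been seen, 10.5% were 2-fold or more higher in Ceacam16-only nuclei and 13.3% lower. Of the 5 measured modulators 1 was higher (Znrf3) and 3 were lower (Lgr5, Rspo2 and Tcf7l2). With 14 different barcodes in all, these values describe few nuclei.

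Lgr5 and Rspo2 were found in the same nucleus in 25 of 72 root nuclei of MethFix (34.7%) and in 28 of 69 of RNAlater (40.6%). If the detections were unrelated, 19.6 and 22.3 such nuclei would result. Of the root nuclei with a Lgr5 UMI, 83.3% and 87.5% also had a Rspo2 UMI. Within the clusters the counts lay nearer to those of unrelated detection. In the Slc26a4-rich cluster 23 of 34 and 27 of 37 nuclei had both, where 22.1 and 24.3 would be given by unrelated detection. The Epyc-rich cluster had 2 of 38 and 1 of 32, against 2.24 and 1.59. With 25 and 29 Slc26a4-rich nuclei holding Lgr5, that cluster left little room for more nuclei with both. Receptor and ligand transcripts were found together mainly in Slc26a4-rich nuclei. Depth acts on such counts: after thinning, 14 of 66 (21.2%) and 17 of 65 root nuclei (26.2%) had both. Unrelated detection would give 11.5 and 11.6 of these thinned nuclei. In the thinned Slc26a4-rich cluster 14 of 34 and 17 of 37 nuclei had both, against 14.1 and 14.1. The thinned Epyc-rich cluster had 0 of 32 and 0 of 28, against 0.84 and 0.36. Outside the root class none of 3300 and 2242 nuclei had UMIs of both, Ceacam16-only nuclei included, where unrelated detection would give 0.083 and 0.107. Most of these nuclei had neither gene, and the counts describe detection at this depth only.

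**Figure D3:**
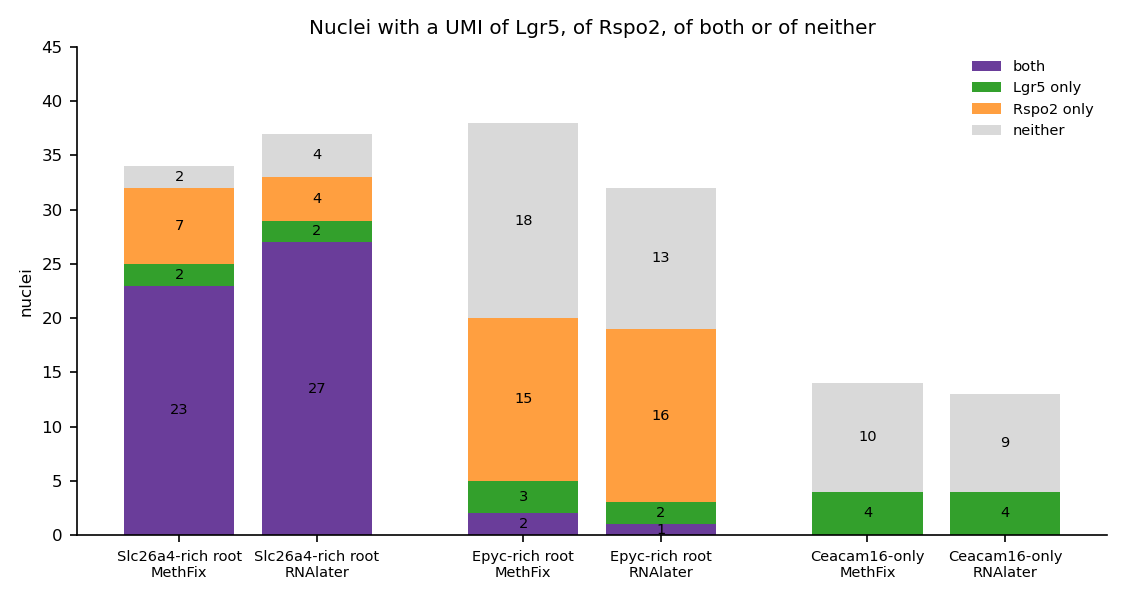
Number of nuclei with UMIs of both Lgr5 and Rspo2, of Lgr5 only, of Rspo2 only and of neither, as stacked bars for the Slc26a4-rich root, Epyc-rich root and Ceacam16-only nuclei of each matrix. Nuclei with both were 23 of 34 and 27 of 37 in the Slc26a4-rich cluster, 2 of 38 and 1 of 32 in the Epyc-rich cluster and 0 in the Ceacam16-only cluster.

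The root values depend on how root nuclei are drawn. When each barcode was instead placed by its own 2 or more UMIs of Ceacam16 and Epyc, 63 and 65 barcodes counted as root. These took in 13 and 13 Ceacam16-only nuclei and 45 and 45 of the root class, 62.5% and 65.2% of it. Lgr5 was then at 392 and 443 CPM, Rspo2 at 514 and 536, and both were found together in 15.9% and 18.5% of the barcodes. With a UMI of each gene of the pair required, 14 and 20 barcodes remained, with Lgr5 at 918 and 770 and Rspo2 at 1345 and 953 CPM. Under each of these rules the ratio of root over spindle nuclei stayed past 2-fold for Lgr5 and Rspo2 in both matrices.

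Dkk2, a secreted protein that binds Lrp co-receptors and mostly dampens Wnt signalling, was a transcript of Reissner nuclei. It reached 5602 CPM in MethFix (2219 UMIs) and 5566 in RNAlater (2720 UMIs), 88.4% and 91.5% of the Dkk2 UMIs of all kept nuclei. The log2 ratio against all other nuclei was 7.81 and 7.80. A Dkk2 UMI was found in 134 of 155 and 139 of 154 Reissner nuclei, with a median of 8 and 11 UMIs per nucleus and up to 99 and 128. Spindle nuclei came next at 931 (244 UMIs) and 1044 CPM (204 UMIs), 2.59 and 2.41 lower on the log2 scale. Root nuclei had 0 UMIs in MethFix and 1 in RNAlater. In MethFix the root level was at least 68.5-fold lower than the spindle level, and in RNAlater the log2 ratio was −8.04 (−13.35 to −5.54). In their class levels root and spindle nuclei thus differed in opposite directions, with Lgr5 and Rspo2 higher in root nuclei and Dkk2 higher in spindle nuclei. Most nuclei of the spindle class had no Dkk2 UMI. Marginal (2.54 and 5.32), basal (3.33 and 4.52) and intermediate nuclei (5.61 and 3.51 CPM) had traces, with a UMI in 0.905% and 1.49% of marginal nuclei.

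Within the spindle class Dkk2 was held by few nuclei. It was found in 32 of 97 and 19 of 57 spindle nuclei. The 10 and 9 nuclei with 5 or more UMIs held 82.0% and 93.1% of the class's Dkk2. Of these, 9 and 9 had barcodes found in both matrices, so that their paired values are not independent. The highest single nucleus had 44 and 54 UMIs. These nuclei carried the spindle markers, with Anxa1 at 2149 and 1506 and Il1rapl2 at 3166 and 3883 CPM. The Reissner pair was near 0 in them, with 0 and 1 UMI of Slc26a7 and 1 and 3 UMIs of Otx2os1, against 2181 and 2341 and 1396 and 1445 CPM in Reissner nuclei. Other genes with a pattern like that of Dkk2 differed in these nuclei. Cndp1 was at 716 and 659 CPM in these nuclei, 48.8 and 67.6 in spindle nuclei without Dkk2 and 3274 and 3374 in Reissner nuclei. Otx2 was at 139 and 141 CPM from 6 and 6 UMIs, against 364 and 336 in Reissner nuclei. Ntn1 was at 300 and 353 CPM from 13 and 15 UMIs, above its 179 and 170 CPM in Reissner nuclei. Sv2b had 0 UMIs in them, and the Reissner marker Vmo1 had 0 and 1. The nuclei rich in Dkk2 were deeper, with a median of 4194.5 and 4566 UMIs against 2366 and 3137 in spindle nuclei without Dkk2, and the part of depth was not tested.

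**Figure D4:**
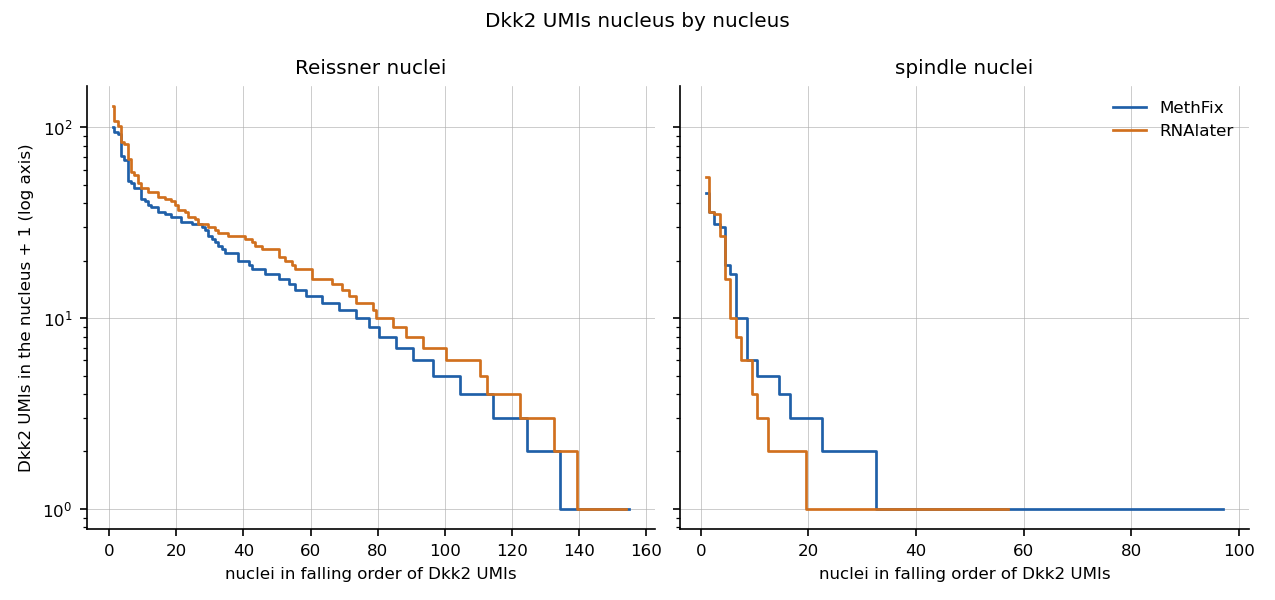
Dkk2 UMIs of each nucleus plus 1, on a log axis, with the nuclei of the Reissner class (left) and the spindle class (right) in falling order, 1 line per matrix. Reissner nuclei fell gradually from 99 and 128 UMIs and most had some, while in the spindle class a few nuclei started at 44 and 54 UMIs and most lay at 0.

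Dkk3, a divergent member of the Dkk family whose place in Wnt signalling is less settled, was a transcript of intermediate nuclei, the melanocyte-like layer of the SV. Its level there was 784 CPM in MethFix and 807 in RNAlater, with a UMI in 87.4% and 96.0% of nuclei. Intermediate nuclei held 83.7% and 85.6% of the Dkk3 UMIs of all kept nuclei. The log2 ratio to all other nuclei was 3.72 and 4.01. Basal nuclei followed at 77.0 and 77.8 CPM, unevenly over their clusters: 113 in 1 MethFix cluster against 42.6 and 29.4 in the others, and 178 and 87.1 in a pair of RNAlater clusters against 36.4 and 36.1. Summed intermediate markers moved with it, at 1800 against 674 and 623 and at 2510 and 1215 against 596 and 570 CPM in the same clusters. Their part in the basal values was not tested. The 2 Dkk genes, like the 2 R-spondins, were thus highest in different classes.

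Among the downstream members, Znrf3, the ligase that R-spondins hold back, was found in every class. It was highest in Ceacam16-only nuclei, as given above, followed by Reissner (371 and 372 CPM), marginal (347 and 370) and root nuclei (258 and 230). The intervals of Ceacam16-only and Reissner nuclei overlapped in both matrices. Basal (173 and 179), intermediate (164 and 190) and spindle nuclei (137 and 179) were lower, with overlapping intervals. Tcf7l2, a TCF factor that works with beta-catenin, was lowest in Ceacam16-only nuclei, as given above. In the other 6 classes it ran from 229 and 228 CPM in marginal nuclei to 366 and 440 in Reissner nuclei, with root nuclei at 272 and 302 and spindle nuclei at 294 and 353. Neither passed 2-fold in the same direction in both matrices between root and spindle nuclei or between any class of the SV and all other nuclei. Axin2, a feedback target often read as a sign of Wnt response, was uneven. It was highest in basal nuclei at 51.8 CPM in MethFix and 54.3 in RNAlater. Intermediate nuclei had 38.4 and 43.6, with intervals that overlapped those of basal nuclei. Spindle (41.9 and 35.8), Ceacam16-only (37.2 and 35.6), root (22.7 and 31.8) and Reissner nuclei (27.8 and 26.6) rest on 13 or fewer UMIs each, and their intervals overlapped that of intermediate nuclei. In marginal nuclei, which held most Rspo3 together with Lgr4 and Znrf3, Axin2 was at 1.69 and 1.01 CPM. Its log2 ratio to all other nuclei was −4.60 and −5.46. Znrf3, also turned on by the pathway, went the other way there, with a log2 ratio of 0.88 and 0.84, short of 2-fold. A Wnt response in marginal nuclei was not tested.

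Read over whole comparisons, the members moved in both directions. Of 6272 genes measured in root against spindle nuclei, 10.0% were 2-fold or more higher in root nuclei in both matrices and 10.7% lower. Among the 8 measured members Lgr5 and Rspo2 were higher and Rspo3 and Dkk2 lower. Root nuclei against all other nuclei had the same 2 members higher (9.57% of all 15061 genes measured) and Rspo3, Dkk2 and Dkk3 lower (10.3%). Spindle nuclei had Lgr6 and Dkk2 higher (8.76%) and Lgr4, Rspo2, Rspo3 and Dkk3 lower (8.09%). Reissner nuclei had Lgr4, Lgr6 and Dkk2 higher (7.73%) and Lgr5, Rspo2, Rspo3 and Dkk3 lower (13.1%). Of these calls, the counting intervals of 3 span a ratio of 1 in at least 1 matrix: Rspo2 in spindle nuclei (2 and 1 UMIs), Lgr6 in spindle nuclei (in MethFix, 3 UMIs) and Lgr6 in Reissner nuclei (4 and 4 UMIs). Apart from Lgr4, the members lower against all other nuclei had most of their UMIs in another class, which those calls restate. Reissner against spindle nuclei had Lgr4, Dkk2 and Znrf3 higher (7.57% of 7250 genes) and no member lower (9.77%).

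The 3 SV layers, whose comparisons were added after the data were seen, had 1 higher member each. It was Rspo3 in marginal nuclei (9.51% of genes higher), Dkk3 in intermediate nuclei (7.72%) and Axin2 in basal nuclei (10.2%). In each layer 6 members were lower, beside 21.4%, 21.0% and 18.2% of all genes. Lgr5, Lgr6, Rspo2 and Dkk2 were among the lower members of all 3 layers. They had 21 or fewer UMIs in each layer, and these calls restate that their UMIs lay elsewhere.

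**Figure D5:**
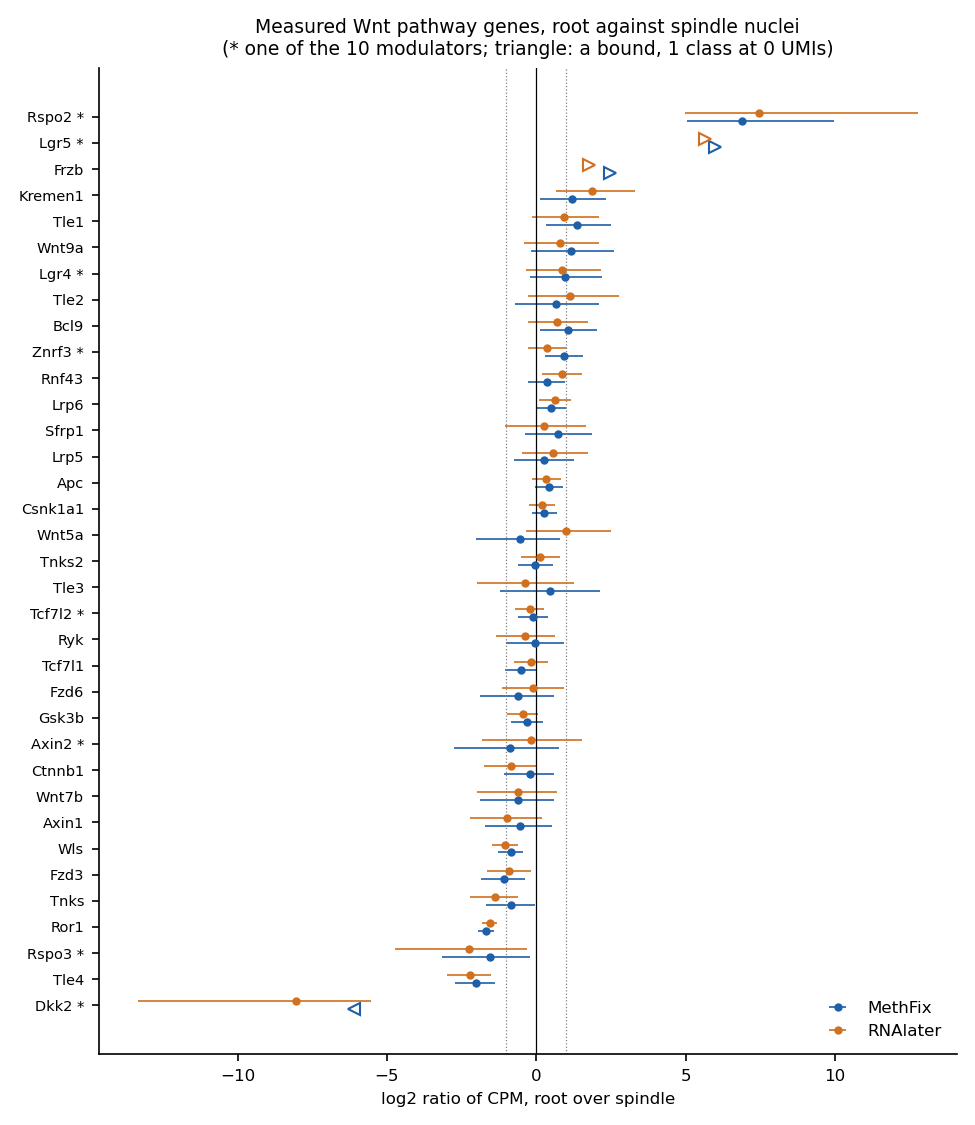
Log2 ratio of CPM in root over spindle nuclei for the 35 measured genes of the Wnt list, 1 point per matrix with the exact 95% interval for counting error, triangles for bounds where a class had 0 UMIs, asterisks for the 10 modulators and dotted lines at 2-fold. Rspo2, Lgr5, Frzb and Kremen1 lay beyond the line on the root side and Dkk2, Tle4, Rspo3 and Ror1 on the spindle side in both matrices.

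The wider pathway was read from a list of 89 Wnt genes, the 10 members included. In root against spindle nuclei 35 of them were measured, 4 were higher and 4 lower, 11.4% in each direction, and their median log2 ratio was 0.05 against −0.02 over all genes. Of these 35 genes 8 were members, and members made up 2 of the higher and 2 of the lower genes. As members were chosen with earlier results of these data known, these shares do not describe the wider pathway alone. Apart from the members, the higher genes were Frzb and Kremen1. Frzb, a secreted Frizzled-related protein that binds Wnts, was at 63.4 and 51.6 CPM in root nuclei and at 0 in spindle nuclei, at least 5.54-fold and 3.36-fold higher. Kremen1, a receptor through which Dkk proteins clear Lrp co-receptors, was at 104 and 131 against 45.8 and 35.8. The lower genes apart from members were Ror1 and Tle4. Ror1, a Wnt5a receptor, was at 661 and 671 CPM in root nuclei against 2105 and 1986 in spindle nuclei, a log2 ratio of −1.67 and −1.57. Tle4, a co-repressor of TCF factors, was at 109 and 87.3 against 446 and 410. Wls, which carries Wnt proteins to the surface, was the most abundant gene of its group in root nuclei at 331 and 302 against 603 and 624, and its log2 ratio of −0.87 and −1.05 passed 2-fold in 1 matrix only. Csnk1a1, a kinase of the beta-catenin destruction complex, was near equal at 439 and 429 against 366 and 379. By group, 1 of 2 measured R-spondins (Rspo2) and 1 of 4 receptors and ligases (Lgr5) were higher in root nuclei, beside 10.0% of all genes. So were 2 of 4 genes listed as secreted inhibitors, Frzb and Kremen1, though Kremen1 is a receptor and not a secreted protein. Of 4 feedback targets 1 was higher, Lgr5 again. Lower, beside 10.7% of all genes, were 1 R-spondin (Rspo3) and 1 secreted inhibitor (Dkk2). The others were 1 of 6 Wnt receptors (Ror1) and 1 of 7 transcription factors and cofactors (Tle4). None of 4 ligand and release genes and none of 8 genes of the intracellular chain passed 2-fold either way.

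The genes most like Lgr5, Rspo2 and Dkk2 in their pattern over 7 classes were found by Pearson correlation over 14 points, 2 per class from matrices that share nuclei, among 11470 genes. These coefficients describe an order and carry no test. For Lgr5 they were Adamts2 (0.98), Slf1 (0.97), Chst8 (0.97), Gramd1c (0.96) and Wisp1 (0.95), of which Adamts2 and Wisp1 had only 9 and 6 UMIs in MethFix root nuclei. For Rspo2 they were Sh3rf3, Gm26740, Aff2, Cpm and Runx1, all at 0.98 or 0.99, with 19 to 27 UMIs in the same nuclei. For Dkk2 they were Ntn1, Sv2b, Cndp1, Meg3 and Otx2, from 0.98 upwards, and Otx2 was among the markers used to name Reissner nuclei. The coefficient between Lgr5 and Rspo2 was 0.71.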

How the data were processed

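The authors deposited raw UMI counts per gene and barcode for 2 droplet libraries of nuclei (10x Genomics), made with Cell Ranger 3.0.1 on mouse build GRCm38, per the labels, and analysed them with Scanpy 1.4.5. Whether intronic reads were counted is not given in the sources used here. The matrices held 21027671 (MethFix) and 17681824 UMIs (RNAlater).

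Genes in under 3 barcodes, barcodes with under 200 genes, over 8000 counts or over 10% mitochondrial counts, and doublets marked by Scrublet were removed. Nuclei were clustered with Scanpy 1.11.5 and Leiden (4000 variable genes, 30 components, 10 neighbours, resolution 1 and 1.5 by matrix), leaving the members and the Wnt list out of the variable genes. The members and lists were chosen with earlier results of these data known, and the naming rule was set after clusters were seen: a list's markers averaged highest by 0.7 or more, with 3 or more of its markers detected and, for root, spindle and Reissner, both genes of the pair at 100 or more CPM. For all other lists the average, on a log2 scale, also had to reach 2.5 and 0.7 of that list's highest average over the clusters. Apart from Ceacam16-only, clusters failing the rule stayed unnamed (307 and 137 nuclei).

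Levels (CPM) are a gene's summed UMIs per 1000000 UMIs of a class, with exact Poisson or binomial intervals. Genes with 10 or more UMIs over both sides in each matrix count as measured, and a gene counts as higher or lower at 2-fold or more in the same direction in both matrices. A level of 0 was set to a floor of 3 UMIs. Named were the 10 members; of the Wnt list those past 2-fold between root and spindle nuclei and the gene of each group with most UMIs in MethFix root nuclei; and the 5 genes whose log2(CPM + 10) followed Lgr5, Rspo2 or Dkk2 most closely among those with 50 or more UMIs. Scripts were tested on simulated data. edgeR 4.0.16 and DESeq2 1.42.0 gave alternative scaling factors only. Alternatives covered barcode gates, resolution, filters, shared barcodes, thinning, scaling and fold, and 8 on the make-up of the root class were added after seeing the data. Promoter windows come from RefSeq.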

Additional observations from a re-analysis of the deposited data

Results flagged for a closer look

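The 1376 MethFix and 1557 RNAlater barcodes that the filters removed enter none of the comparisons, and they held transcripts of the 3 leading genes above the floor that a count of 0 allows. Among removed barcodes with 2 or more UMIs of Ceacam16 and Epyc (11 and 10 barcodes), Lgr5 was at 149 CPM in MethFix and 265 in RNAlater, and Rspo2 at 89.6 and 172. Removed barcodes placed by Slc26a7 and Otx2os1 (24 and 10) had Dkk2 at 488 and 1714 CPM. In the removed barcodes that none of the 3 marker pairs placed (1268 and 1502), Lgr5 was at 12.5 and 13.5, Rspo2 at 3.62 and 4.26 and Dkk2 at 15.6 and 9.74 CPM.

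The Lgr5 of the removed barcodes sat in few of them. In MethFix 13 barcodes with 4 or more Lgr5 UMIs held 90 of 116, and in RNAlater 11 such barcodes held 102 of 114. Of these, 12 and 11 had over 8000 counts. Only 2 and 2 had a Rspo2 UMI and 2 and 1 a Ceacam16 UMI. Of the supporting-cell markers, Prox1 had 20 and 3 UMIs in them, Cdkn1b 8 and 7, Fgfr3 3 and 2, Lfng 2 and 1 and Sox2 0. Their cell type was not named.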

How the results depend on the processing

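Of 732 values recomputed under alternatives, 642 stayed within a limit and 90 moved further. The limit was the counting interval, 1.5 times for counts of genes, or 2-fold for member ratios that were bounds. Of the 159 main results among them, 117 stayed within that limit and 42 moved further, against 525 and 48 of 573 other values. A reversal was counted only for ratios of members past 2-fold, and there were 0. In root against spindle nuclei, and in root, spindle and Reissner nuclei against all others, all 168 recomputed ratios of members past 2-fold kept their direction and stayed past it, and of all 308 member ratios 293 kept their direction. Only other scalings were run for the last 3 of these. Placing barcodes by their own marker UMIs gave Lgr5 at 392 and 443, Rspo2 at 514 and 536 and Dkk2 in Reissner nuclei at 5230 and 5150 CPM (MethFix and RNAlater), Lgr5 in 28.6% and 30.8% of root nuclei and both genes in 15.9% and 18.5%. The stricter gate gave Lgr5 at 918 and Rspo2 at 1345 in MethFix, Dkk2 at 5800 in RNAlater, and 347 genes higher and 423 lower in root against spindle nuclei. Without barcodes found in both matrices Dkk2 in Reissner nuclei was at 3973 and 3215, from only 11 nuclei in each matrix. Under that setting 30 values, those of root nuclei included, could not be computed, as too few nuclei remained. Thinning gave Lgr5 in 32.3% of RNAlater root nuclei and both genes in 21.2% and 26.2%. Counting Ceacam16-only nuclei as root gave Rspo2 at 732 and 740. The Slc26a4-rich cluster alone gave Lgr5 at 1275 and 1200, Rspo2 at 1436 and 1259, Lgr5 in 73.5% and 78.4% and both genes in 67.6% and 73.0% of nuclei. A fold of 4 left 222 genes higher and 239 lower in root against spindle nuclei, 568 and 463 in root, 469 and 368 in spindle and 448 and 646 in Reissner nuclei against all others, and 2 and 2 genes of the Wnt list; without the filter on low counts 7 of the list were lower. With 1 in place of 10 added before the logarithm, 9 of the 15 genes named for their pattern remained. All those of Dkk2 did, but only Slf1 and Wisp1 of those of Lgr5 and only Sh3rf3 and Gm26740 of those of Rspo2. The coefficient between Lgr5 and Rspo2 was then 0.55. Other scalings moved all log2 ratios of a comparison by up to 0.30 and changed 2 calls of members: Znrf3 in Ceacam16-only against root nuclei was lost, and Axin2 in intermediate nuclei was gained. The causes were not tested. No analysis paired by animal was possible, because each preservation method had 1 library that pooled several mice. Shared barcodes served to measure the overlap of the matrices and to restrict classes, not to compare the methods.

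Depth limits the smaller classes: 3 UMIs, the floor of a count of 0, stand for 13.6 and 11.9 CPM in root nuclei and for 55.8 and 53.4 in Ceacam16-only nuclei.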
